A study of Sus scrofa with 11 samples.

Results

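The genes described here are 10 markers of Kupffer cells and other macrophages: MARCO, CD163, CD68, C1QA, C1QB, C1QC, CD5L, VSIG4, MSR1 and CSF1R. They were listed by name, and each pig Ensembl gene ID of the deposited table was paired with its symbol. Of the 10, 9 are among the 12505 genes of the table, and CD5L is not analysed here. The series measured RNA of wild-type pig liver in 11 libraries. The 2 control libraries carry the label of day 0, and 3 libraries each of liver given 20, 30 or 40 Gy of radiation carry that of day 35. The controls were therefore taken at another time than the irradiated samples, and dose and elapsed time cannot be told apart against control, whereas the 3 doses share 1 day. The labels call the cells hepatocytes, but the protocol describes RNA from whole liver. No source used here gives the breed, sex or age of the pigs. Nor do the labels state that the libraries of a group came from separate pigs, so the p-values rest on a spread between libraries that may be technical.

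Kupffer cells are the resident macrophages of the liver. They sit in the sinusoids, the capillaries of the liver, and clear bacteria, old red blood cells and debris from portal blood with scavenger and complement receptors. They depend on signals through the CSF1 receptor, and after injury they can be joined or replaced by macrophages that derive from blood monocytes. MARCO and MSR1 are scavenger receptors of class A with a collagen-like stalk. CD163 takes up complexes of haemoglobin and haptoglobin, CD68 is a glycoprotein of late endosomes and lysosomes, and VSIG4 is the receptor for complement C3b by which Kupffer cells catch particles from blood. C1QA, C1QB and C1QC encode the 3 chains of C1q, which starts the classical complement pathway, and CSF1R encodes the receptor for the macrophage growth factors CSF1 and IL-34.

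Each value is an FPKM, a fragment count divided by the length of the transcript and scaled to the mapped fragments of the library, so that levels of different genes can be compared. The depth of the libraries is unknown, and 10236 to 10866 genes had at least 1 FPKM in each. Libraries 30Gy-1 and 30Gy-2 were nearly identical, and so were 20Gy-3 and 30Gy-3, which carry different doses. Over 6519 genes the log2 ratio within these pairs had an SD of 0.177 and 0.179, against 0.346 to 1.22 in the other 53 pairs. No value was identical. In means ± SD the pair from 30 Gy counts as 1, so n is 2 in control and at 30 Gy and 3 at the other doses, while the tests treat all 11 libraries as separate. Because whole liver was measured, fewer macrophages and less RNA per macrophage cannot be told apart.

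All 9 genes were above 0 in every library. In control liver the C1q chains were highest, with means of 281 FPKM for C1QC, 265 for C1QB and 117 for C1QA. They were followed by CD163 (40.9), CD68 (29.4), CSF1R (20.5), VSIG4 (13.5), MARCO (6.23) and MSR1 (3.53). The ranges of C1QC and C1QB overlapped, as did those of VSIG4, MARCO and MSR1 between neighbours, while the other neighbours in this order did not overlap in the 2 control libraries. C1QC, C1QB and C1QA kept the first 3 places by mean in all 4 groups, and MSR1 came last in every group. MARCO moved from place 8 of 9 in control-1 and 9 in control-2 to places 4 to 7 in the 9 irradiated libraries.

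MARCO lies on chromosome 15, 24502935 to 24541286 (build Sscrofa11.1, ENSSSCG00000015716), and a pseudogene, LOC100516467, lies within its span. Its level was 11.7 FPKM in control-1 and 0.770 in control-2. It was 18.0, 30.9 and 20.2 in the libraries of 20 Gy, 38.2, 40.6 and 19.2 in those of 30 Gy, and 79.2, 21.9 and 30.4 in those of 40 Gy, each in the order 1, 2, 3. Every irradiated library was above both controls, and the ratio between the 2 controls exceeded that between any 2 libraries of 1 dose. Control liver had a mean of 6.23 ± 7.72 (SD, n = 2). Liver given 20 Gy had a mean of 23.1 ± 6.90 (n = 3), against 29.3 ± 14.3 (n = 2) after 30 Gy and 43.8 ± 30.9 (n = 3) after 40 Gy. 40Gy-1 held 3.03 times the mean of 40Gy-2 and 40Gy-3.

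**Figure D1:**
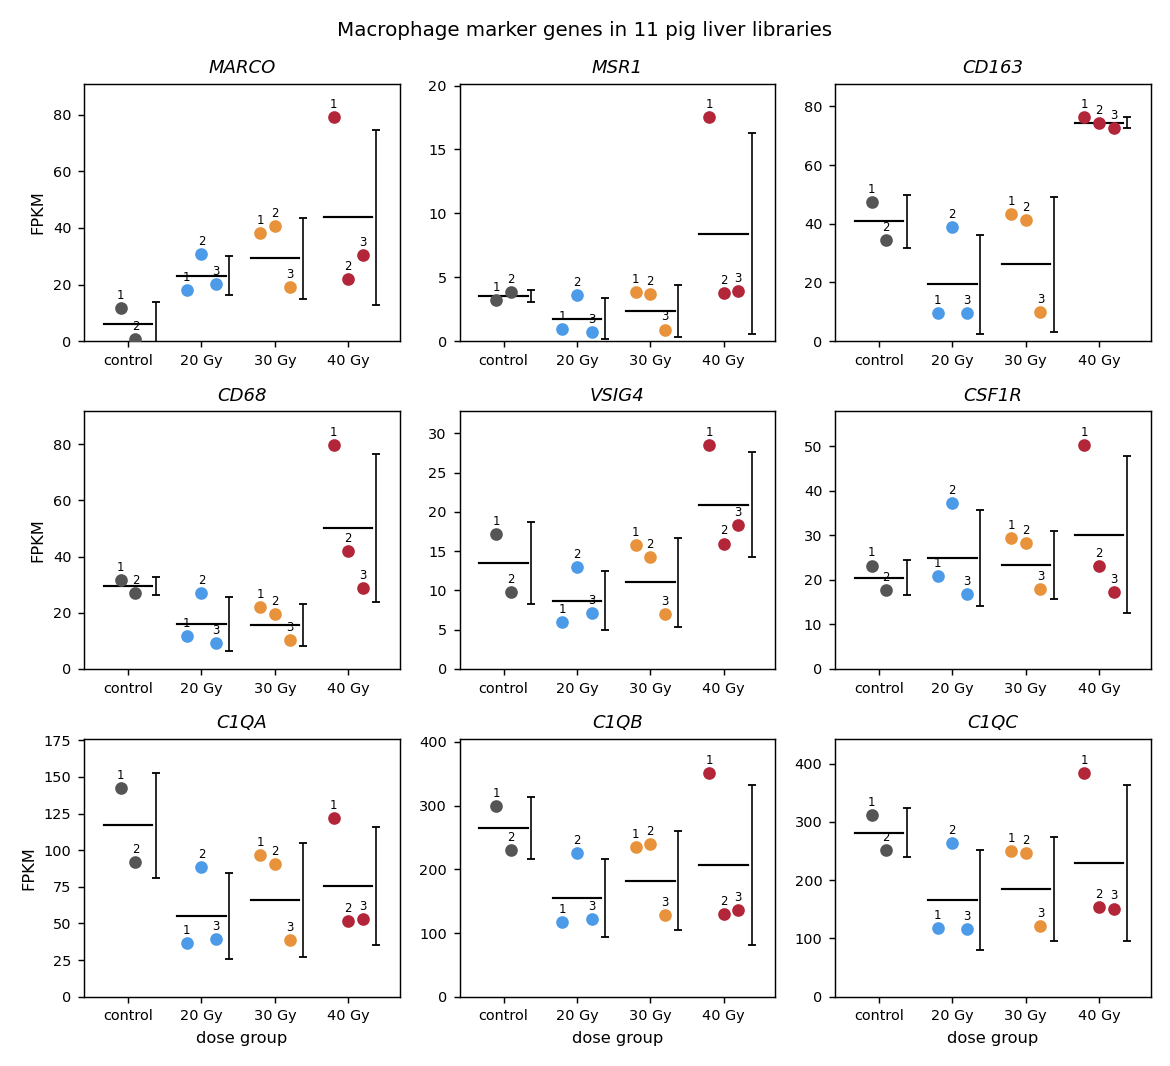
FPKM of the 9 marker genes in each library by dose group. Points are libraries with their replicate number, lines are group means and bars are ± 1 SD, with 30Gy-1 and 30Gy-2 counted as 1 and the lower bar of MARCO in control ending below 0. MARCO lies above both controls in all 9 irradiated libraries, and CD163 lies between 72.5 and 76.3 in the 3 libraries of 40 Gy.

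The other class A scavenger receptor, MSR1 (chromosome 17, 3859903 to 3939612), had 3.19 and 3.87 FPKM in the controls. At 20 Gy it had 0.970, 3.58 and 0.699, at 30 Gy 3.86, 3.69 and 0.911, and at 40 Gy 17.5, 3.79 and 3.96. Levels near those of the controls were seen in 20Gy-2, 30Gy-1, 30Gy-2, 40Gy-2 and 40Gy-3, lower ones in 20Gy-1, 20Gy-3 and 30Gy-3, and a high one in 40Gy-1 alone. The haemoglobin scavenger receptor CD163 (chromosome 5, 63300200 to 63334497) had 47.3 and 34.5 FPKM in control. It had 9.50, 38.9 and 9.58 at 20 Gy, 43.2, 41.4 and 9.95 at 30 Gy, and 76.3, 74.4 and 72.5 at 40 Gy. Its 3 libraries of 40 Gy were close together and above all 8 others, a pattern whose share of all genes was not computed. Its low values were in the same 3 libraries as those of MSR1. The lysosomal CD68 (chromosome 12, 52874754 to 52877256) had 31.7 and 27.2 FPKM in control, 11.8, 27.1 and 9.32 at 20 Gy, 21.9, 19.7 and 10.2 at 30 Gy, and 79.7, 42.0 and 28.8 at 40 Gy. All 6 libraries of 20 and 30 Gy were below both controls, but 20Gy-2 (27.09) nearly equalled control-2 (27.16). The share of all genes with this pattern was not computed, and CD68 was not called against control at 20 or 30 Gy (limma adjusted p = 0.289 and 0.482). All 3 libraries of 40 Gy were above the 6, as in 13.0% of all genes tested.

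The complement receptor VSIG4 (chromosome X, 52175601 to 52198635) had 17.2 and 9.82 FPKM in control, 5.96, 13.0 and 7.18 at 20 Gy, 15.8, 14.2 and 7.04 at 30 Gy, and 28.5, 16.0 and 18.3 at 40 Gy. Its libraries of 40 Gy were above those of 20 and 30 Gy but overlapped the controls. The genes of the C1q chains lie side by side on chromosome 6 within 19818 bp (80586259 to 80606076), with C1QC between C1QA and C1QB. C1QB had 299 and 231 FPKM in control, 118, 225 and 123 at 20 Gy, 235, 240 and 128 at 30 Gy, and 352, 131 and 137 at 40 Gy. Here 40Gy-1 was the highest library, while 40Gy-2 and 40Gy-3 were below both controls and slightly above 20Gy-1, 20Gy-3 and 30Gy-3. The 3 chains kept close to fixed proportions: the ratio of C1QC to C1QB was between 0.949 and 1.18 over all 11 libraries, and that of C1QA to C1QB between 0.302 and 0.476. CSF1R (chromosome 2, 151102138 to 151130311) had 23.2 and 17.7 FPKM in control, 20.8, 37.2 and 16.9 at 20 Gy, 29.3, 28.3 and 18.0 at 30 Gy, and 50.3, 23.0 and 17.2 at 40 Gy. It was high in 40Gy-1 and 20Gy-2, and its dose groups overlapped the controls and each other.

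Irradiated liver was first set against control liver. On the scale of FPKM + 1, MARCO was 6.48-fold higher in the mean of the 3 doses than in control (log2 difference 2.70, SE 0.649, limma with Benjamini-Hochberg adjusted p = 0.0438, range over alternatives 0.0169 to 0.413), and it was higher than both controls in 9 of 9 libraries. It was the 1 of 9 markers called at an adjusted p under 0.05, in a comparison that called 4.71% of the 11644 genes tested. Of those genes 5.42% were, like MARCO, above both controls in every irradiated library. The other 8 markers missed the threshold, with log2 differences from -0.86 for C1QA (SE 0.457, adjusted p = 0.331) to 0.29 for CSF1R (SE 0.383, adjusted p = 0.715). Their 95% intervals were wide, for example from -1.87 to 0.16 for C1QA and from -1.62 to 0.91 for CD163. The median over the 9 markers was -0.36, beside 0.01 over all genes tested. Of all calls 39.6% were higher in irradiated liver, and after every library was rescaled to the same FPKM sum 60.6%; the median of all genes then moved from 0.01 to 0.14, and MARCO missed the threshold (adjusted p = 0.0789).

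By single dose, MARCO was called at 40 Gy (log2 difference 3.03, SE 0.757, adjusted p = 0.0404, range 0.0177 to 0.252) and not at 20 Gy (2.31, adjusted p = 0.116) or 30 Gy (2.76, adjusted p = 0.0900). These comparisons share the 2 control libraries. None of the other 8 markers was called at any dose, where 4.23%, 3.03% and 7.39% of all genes were called at 20, 30 and 40 Gy. At an unadjusted p under 0.05 MARCO was the 1 marker of 9 that passed at 20 Gy, and likewise at 30 Gy, against 22.0% and 16.5% of all genes. The call of MARCO rests on few libraries: without control-2 its difference between irradiated and control liver was 1.28 (adjusted p = 0.413), and the call was lost as well without any 1 library of 20 or 30 Gy or without 40Gy-3 (adjusted p from 0.0508 to 0.0816). It was also lost with 30Gy-1 and 30Gy-2 averaged (0.0811) and on dropping both 20Gy-3 and 30Gy-3 (0.0822). Without control-2 the difference at 40 Gy was 1.61 (adjusted p = 0.252); that call was also lost without any 1 of the other irradiated libraries except 30Gy-3 and 40Gy-1 (0.0501 to 0.0706). By contrast, without control-1 MARCO was called at 20 Gy (3.73, adjusted p = 0.0278) and 30 Gy (4.18, adjusted p = 0.0192), and at 30 Gy also without 40Gy-1 (adjusted p = 0.038).

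**Figure D2:**
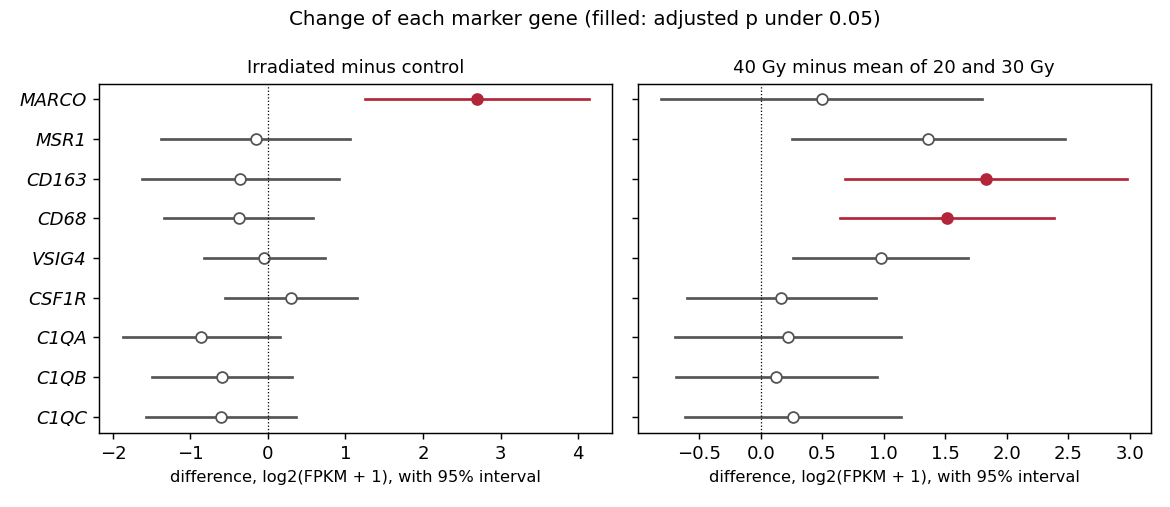
Difference of each marker gene on the log2(FPKM + 1) scale, for irradiated minus control liver (left) and for 40 Gy minus the mean of 20 and 30 Gy (right). Points are estimates of the fit to 11 libraries, lines are 95% intervals not adjusted for the number of genes, and filled points have an adjusted p under 0.05. MARCO stands at 2.70 on the left and at 0.49 on the right, where CD163 (1.83) and CD68 (1.51) are the filled points.

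The doses were then compared with each other at day 35. CD163 was 3.56-fold higher at 40 Gy than in the mean of 20 and 30 Gy on the FPKM + 1 scale (log2 difference 1.83, SE 0.516, adjusted p = 0.0319, range 0.00881 to 0.187) and CD68 2.86-fold higher (1.51, SE 0.39, adjusted p = 0.0226, range 0.00923 to 0.2). These were 2 of the 9 markers, in a comparison that called 21.5% of all genes, so their share is close to that of the whole table. VSIG4 (0.97, SE 0.319, adjusted p = 0.0533) and MSR1 (1.36, SE 0.498, adjusted p = 0.075) missed the threshold. With the replicate number as a block MSR1 had an adjusted p of 0.0488, and both were called without 20Gy-2 (0.0283 for VSIG4 and 0.0413 for MSR1). In CD163, CD68 and VSIG4 all 3 libraries of 40 Gy were above all 6 of the lower doses, a pattern found in 13.0% of all genes tested.

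MARCO differed by 0.49 between 40 Gy and the lower doses (SE 0.587, 95% interval -0.81 to 1.80, adjusted p = 0.566), and without 40Gy-1 by -0.03. C1QA, C1QB, C1QC and CSF1R had differences from 0.13 to 0.26, with adjusted p from 0.656 to 0.828. All 4 were negative without 40Gy-1, from -0.18 for C1QC and C1QA to -0.34 for C1QB. The calls of CD163 and CD68 were lost without 20Gy-1 (adjusted p = 0.068 and 0.0505) and without 40Gy-2 (0.109 and 0.0765), and that of CD163 also without 20Gy-3 (0.0659) and 40Gy-3 (0.0917). Leaving out both 20Gy-3 and 30Gy-3 gave 0.0681 for CD163 and 0.0771 for CD68.

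MARCO was next set against the resident Kupffer cell markers within each library. The reference was the mean log2(FPKM + 1) of CD163, VSIG4, C1QA, C1QB and C1QC, and every gene of the table was fitted as its difference from this reference. MARCO lay 3.03 below the reference in control-1 and 5.37 below in control-2 on the log2 scale (-3.03 and -5.37). In the 9 irradiated libraries the difference was between -1.56 and -0.71, and its mean was -0.94 ± 0.32 (SD, n = 3) after 20 Gy, -0.92 ± 0.17 (n = 2) after 30 Gy and -1.14 ± 0.43 (n = 3) after 40 Gy. The 9 irradiated libraries thus fell within a band narrower than the gap between the 2 controls, although the reference itself ranged from 5.04 to 7.03 over the libraries.

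Relative to the reference, MARCO was 9.10-fold higher in irradiated than in control liver (log2 difference 3.19, SE 0.515, limma adjusted p = 0.00128, range 9.66e-07 to 0.531). This fit called 0.567% of all genes, and MARCO was number 15 of 11644 in the order of p. The call held when the reference was CD163 and VSIG4 alone (2.90, adjusted p = 6.72e-04) or CD68 and CSF1R (2.74, adjusted p = 0.0211). It was lost without control-2, where the difference was 2.02 (adjusted p = 0.531). MSR1 (0.33, adjusted p = 0.728), CD68 (0.11, adjusted p = 0.894) and CSF1R (0.78, adjusted p = 0.635) were not called against the same reference. Between 40 Gy and the mean of 20 and 30 Gy the same measure of MARCO differed by -0.19 (SE 0.466, adjusted p = 0.786), where 8.54% of all genes were called.

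**Figure D3:**
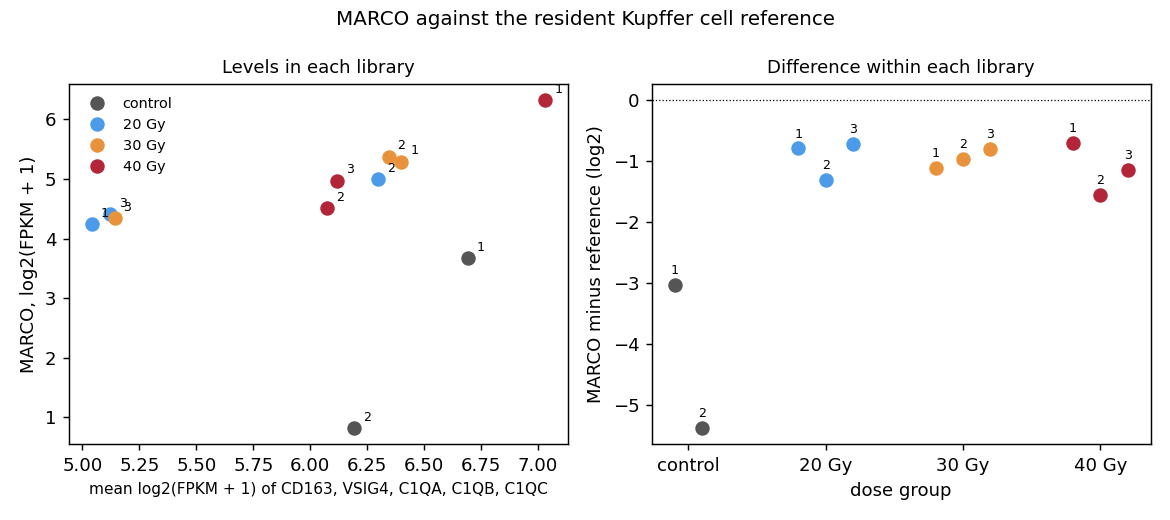
Left, log2(FPKM + 1) of MARCO (vertical) against the mean of 5 resident Kupffer cell markers (horizontal) in each library. Right, the difference of the 2 measures by dose group, with points numbered by replicate. The irradiated libraries lie between -1.56 and -0.71 on the right, and the controls at -3.03 and -5.37.

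In plain FPKM, MARCO stood at 24.7 per 100 of CD163 in control-1 and 2.23 in control-2, and at 29.4 to 211 in the irradiated libraries. Against VSIG4 it stood at 68.1 and 7.84 per 100 in the controls and at 137 to 302 after irradiation, so it passed VSIG4 in each of the 9 irradiated libraries. Per 100 of C1QB it had 3.91 and 0.333 in the controls, 13.7 to 16.5 at 20 Gy, 15.1 to 16.9 at 30 Gy and 16.8 to 22.5 at 40 Gy. The proportion to C1QB thus stayed within 13.7 to 22.5 across the irradiated libraries. That to CD163 ran more widely, from 29.4 to 104 at 40 Gy and from 79.6 to 211 at 20 Gy. CD163 itself stood at 14.9 and 15.8 per 100 of C1QB in the controls, at 7.79 to 18.4 at 20 and 30 Gy and at 21.7 to 57.0 at 40 Gy.

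The markers other than MARCO were then read library by library. Against the control mean, all 8 were lower in 20Gy-3 and 30Gy-3 and 7 of 8 in 20Gy-1, with median log2 differences of -1.34, -1.22 and -1.22. In 20Gy-2, 30Gy-1 and 30Gy-2 the medians were -0.07, -0.03 and -0.05. All 8 were higher in 40Gy-1, with a median of 0.99, whereas 40Gy-2 and 40Gy-3 had 5 and 3 of 8 higher and medians of 0.13 and -0.13. In 40Gy-2 and 40Gy-3 the 8 markers split, with CD163 at 0.87 and 0.83 and C1QA at -1.13 and -1.09. MARCO was 2.01 to 4.08 above the control mean in every irradiated library, including the 3 in which the others were lowest. The near-identical 20Gy-3 and 30Gy-3 are 2 of those 3 libraries.

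Other genes set the same libraries apart. The summed level of 14 inflammatory macrophage genes was 106 FPKM in 20Gy-1, 132 in 20Gy-3 and 160 in 30Gy-3, against 24.35 to 45.04 in the other 8 libraries. Most of these 3 sums came from 1 gene, CCL3L1, with 83.8, 105.1 and 132.5 FPKM, against 0.395 to 5.17 in the other 8 libraries. The sum thus describes that gene more than the list. CCL2, the chemoattractant of monocytes, had 63.2, 83.4 and 84.5 FPKM in these 3 libraries and 6.27 to 7.10 in the other libraries of 20 and 30 Gy. It was also high in 40Gy-1 (32.9), against 1.27 in 40Gy-2, 2.30 in 40Gy-3 and 1.42 and 2.69 in the controls. In 40Gy-1 the summed level of 10 stellate cell markers was 382 FPKM, against 53.8 in 40Gy-2 and 45.2 in 40Gy-3, and that of the T and NK cell markers 32.95, against 9.53 and 7.81. Of the 32.95, NKG7 alone made up 23.3. The collagen gene COL1A1 had 139 FPKM in 40Gy-1 and 3.24 and 1.45 in the other libraries of 40 Gy. The part of these genes and cell types in the levels of the macrophage markers was not tested.

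**Figure D4:**
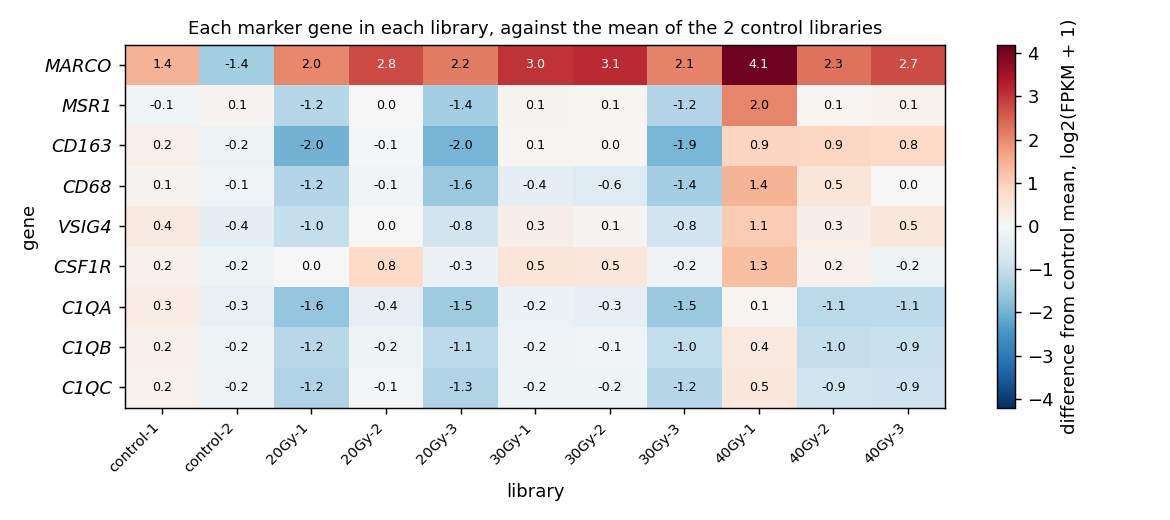
Difference of each marker gene (rows) from the mean of the 2 control libraries in each library (columns), on the log2(FPKM + 1) scale, red above and blue below. The MARCO row is red in all 9 irradiated libraries, and the other rows are blue in 20Gy-1, 20Gy-3 and 30Gy-3, apart from CSF1R in 20Gy-1, and red in 40Gy-1.

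Other genes of Kupffer cells were taken from a list of 17, of which 12 could be tested. In irradiated against control liver 1 fell, none rose, and 9 of 12 had lower values, with a median of -0.56. Of all genes tested 2.84% fell and 48.7% had lower values. The gene that fell was CLEC4F, a C-type lectin that marks Kupffer cells in rodents (chromosome 3, 71683898 to 71696357). It had 25.7 and 11.3 FPKM in the controls and 1.13 to 2.35 in the irradiated libraries except 40Gy-1, which had 8.73. Both controls were above all irradiated libraries, and the share of all genes with this pattern was not computed. Its log2 difference was -2.65 (SE 0.48, adjusted p = 0.0141, range 4.26e-04 to 0.18), and it missed the threshold with either control dropped (0.18 without control-1 and 0.0638 without control-2), after rescaling (0.0669), and with the pair averaged and both 20Gy-3 and 30Gy-3 dropped (0.111). The folate receptor FOLR2 had 841 and 1011 FPKM in control and 269 to 614 after irradiation (-1.05, SE 0.268, adjusted p = 0.054), and the mannose receptor MRC1 11.4 and 15.7 against 3.60 to 10.96 (-0.96, SE 0.243, adjusted p = 0.0521). FOLR2 and MRC1 missed the threshold and are named here after their values were seen. Against the mean of 20 and 30 Gy, 1 of the 12 rose at 40 Gy, the receptor kinase MERTK (0.54, SE 0.141, adjusted p = 0.0241), beside 11.8% of all genes. After rescaling, or with 30Gy-1 and 30Gy-2 averaged, 0 of the 12 were called in this comparison, and 1 was without both 20Gy-3 and 30Gy-3.

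The CSF1 receptor pathway and the general myeloid list shared 1 called gene in irradiated liver, SPI1, which encodes PU.1, the transcription factor required for macrophage development. SPI1 (chromosome 2, 15227850 to 15245679) had 19.2 and 21.0 FPKM in control, 19.7 to 33.7 at 20 and 30 Gy, and 73.3, 87.7 and 95.2 at 40 Gy. The 3 libraries of 40 Gy were more than 2 times as high as any other, and the share of all genes with 40 Gy above every other library was not computed. At 40 Gy it was above the lower doses by 1.71 (SE 0.189, adjusted p = 4.56e-04, range 1.48e-04 to 0.0291). Its difference between irradiated and control liver was 0.89 (SE 0.209, adjusted p = 0.0403), a call lost when any 1 library other than 20Gy-2, 30Gy-3 and 40Gy-1 was left out (0.0566 to 0.266), with the replicate block (0.0517), after rescaling (0.0519), with 30Gy-1 and 30Gy-2 averaged (0.0809) and without both 20Gy-3 and 30Gy-3 (0.0536). The receptor CSF1R, a member of the same pathway list, was not called in any of these comparisons. Of 10 tested genes of the pathway list 1 rose in irradiated liver and 1 rose at 40 Gy against the lower doses, SPI1 in both cases. Of all genes 1.86% and 11.8% rose in these 2 comparisons.

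At 40 Gy against the mean of 20 and 30 Gy, 4 of 14 tested general myeloid genes rose, with none falling and a median of 0.38 beside 0.07 over all genes, of which 11.8% rose. Besides SPI1 they were the lipopolysaccharide co-receptor CD14 (0.90, SE 0.201, adjusted p = 0.0127) and the lysosomal proteases CTSD (1.32, adjusted p = 0.0208) and CTSB (1.06, adjusted p = 0.0162). The calls of these 3 genes were lost without 40Gy-2 (0.0739, 0.0828 and 0.0682), and without 20Gy-3 and 30Gy-3 SPI1 was the 1 gene of the list still called. Of 11 tested genes of lipid-associated macrophages 5 rose at 40 Gy, beside the same 11.8% of all genes, with a median of 0.80. GPNMB, a lysosomal glycoprotein of such macrophages, had 8.64 and 9.74 FPKM in control, 3.75 to 10.6 at 20 and 30 Gy, and 69.1, 52.6 and 45.6 at 40 Gy (2.91, SE 0.311, adjusted p = 3.96e-04). Galectin-3, LGALS3, had 0.374 and 1.26 in control, 0.643 to 1.53 at the lower doses and 17.2, 8.12 and 8.05 at 40 Gy (2.51, SE 0.27, adjusted p = 3.96e-04). Both genes separated 40 Gy from all other libraries, as CD163 did, and the share of all genes that do so was not computed. The lipid droplet protein PLIN2 and the acid phosphatase ACP5 also rose, by 2.23 and 1.86. Of the 11 genes, 2 were called lower and 0 higher in irradiated against control liver, beside 2.84% and 1.86% of all genes. Both are among the 5 that rose at 40 Gy. PLIN2 was 1 of them. It had fallen by 2.95 in irradiated against control liver, and at 40 Gy its mean of 13.3 FPKM was still below that of control, 43.9.

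**Figure D5:**
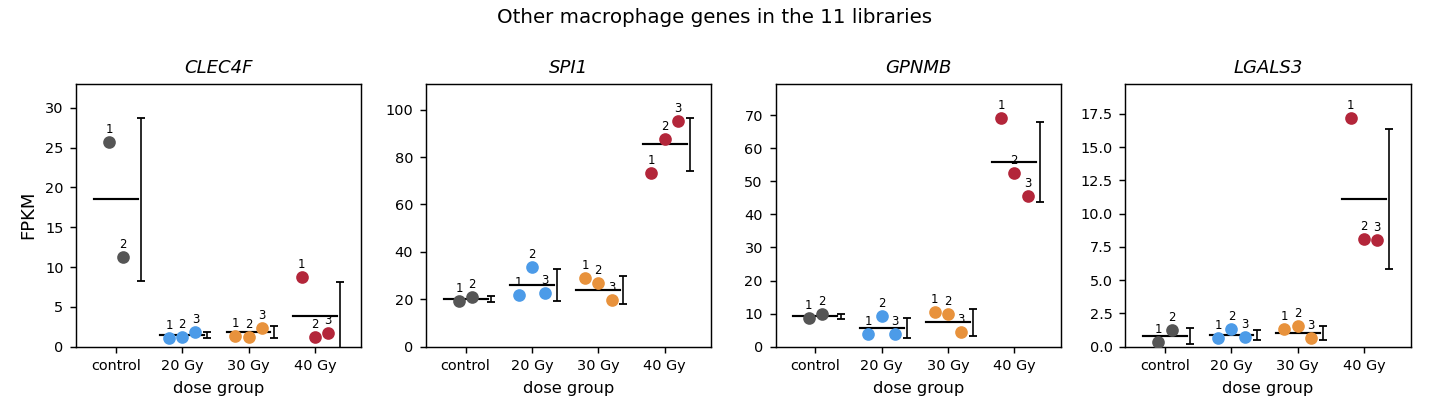
FPKM of 4 macrophage genes outside the marker list by dose group, drawn as in the plot of the marker genes. CLEC4F is highest in the 2 controls, and SPI1, GPNMB and LGALS3 are highest in the 3 libraries of 40 Gy.

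Lists of scavenger receptors and of the classical complement pathway also hold marker genes. Of 9 tested scavenger receptors 1 rose in irradiated liver, MARCO, beside 1.86% of all genes. At 40 Gy against the lower doses 2 rose and 2 fell, beside 11.8% and 9.71% of all genes. The lysosomal SCARB2 rose by 1.34 and CD163 as above, and the lipoprotein receptor SCARB1 (-0.90) and SCARF1 (-0.62) fell. Without 20Gy-3 and 30Gy-3 the counts were 1 and 1. Of 10 tested complement genes none was called in irradiated against control liver, where 4.71% of all genes were. None had an unadjusted p under 0.05 either, beside 20.1% of all genes, and 9 of 10 were lower, beside 48.7%. At 40 Gy 1 of 10 rose against the lower doses, beside the same 11.8% of all genes. It was C3, the source of the C3b that VSIG4 binds (1.41, SE 0.282, adjusted p = 0.008). C3 had 3257 and 2343 FPKM in the controls, 1138 to 1654 at 20 and 30 Gy, and 2124, 5104 and 4499 at 40 Gy. Thus 40Gy-1 was below both controls, and 40Gy-2 and 40Gy-3 were above both. The C1q genes belong to this list and were not among the genes called.

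Among genes of recruited monocytes, none of 9 was called between irradiated and control liver in limma, where 4 of 9 had an unadjusted p under 0.05, beside 20.1% of all genes. At 40 Gy 5 of 9 rose against the lower doses, where 11.8% of all genes rose. They included S100A12 (2.71, SE 0.331, adjusted p = 7e-04), S100A8 (1.42) and the adhesion receptor CD44 (0.74). S100A12 and S100A8 are also neutrophil genes, and 3 of 5 tested neutrophil markers rose at 40 Gy. The summed level of the 5 neutrophil markers was 11.5 to 18.3 FPKM at 40 Gy, 1.78 to 2.85 at the lower doses and 1.78 to 5.13 in control. S100A8 and S100A12 were listed at 0 in some libraries of 20 and 30 Gy. Of 9 tested monocyte chemoattractants, 4 fell at 40 Gy, and 2 of 8 without 20Gy-3 and 30Gy-3, where 9.71% of all genes fell in the fit to 11 libraries. The largest of these falls was that of CCL16, from 756 and 1087 FPKM in the group means of 20 and 30 Gy over all 3 libraries to 75.7 at 40 Gy (-3.62, SE 0.237, adjusted p = 4.41e-05).

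Hepatocyte markers were the most abundant of the cell type lists, with 10 of 10 measured and albumin, ALB, at 7050 to 42550 FPKM. Their summed level was 30010 to 32730 at 40 Gy, 48970 to 66450 at 20 and 30 Gy and 46210 to 76430 in control. Of the 10, 3 (ALB, TTR and TF) fell at 40 Gy against the lower doses, beside 9.71% of all genes. ALB alone had 7050 to 10810 FPKM at 40 Gy and 27260 to 35550 at 20 and 30 Gy. Another 3 were higher at 40 Gy and not called: FGB (0.997), CPS1 (0.485) and HNF4A (0.474). FGB had 4958 FPKM in 40Gy-1, 14370 in 40Gy-2 and 16230 in 40Gy-3. The rest were lower and not called. The fall of the sum thus describes ALB, TTR and TF more than the list. The part of these abundant genes in the differences at 40 Gy was not tested. With every library rescaled to the same FPKM sum CD163 (1.77, adjusted p = 0.0532) and CD68 (1.46, adjusted p = 0.0767) kept their direction and missed the threshold. Markers of sinusoidal endothelium (9 of 12 measured) summed to 417 and 536 FPKM in control, 140 to 181 at 20 and 30 Gy and 149 to 393 at 40 Gy. Most of the control sums came from CLEC4G (205.7 in control-1, 263.1 in control-2) and FCN2 (219.6 and 59.65). At 20 and 30 Gy CLEC4G had 47.66 to 95.67 and FCN2 15.19 to 27.3. At these doses PECAM1, ENG, EHD3 and STAB1 overlapped the controls, while LYVE1, OIT3 and KDR were below both, a pattern whose share of all genes was not computed. The sum thus describes CLEC4G and FCN2 more than the list. Markers of T and NK cells (6 of 12 measured) summed to 11.14 to 11.18 in control, 16.0 to 21.6 at 20 and 30 Gy and 7.81 to 32.95 at 40 Gy. NKG7 alone had 23.3 FPKM in 40Gy-1, the library with the highest sum. Of the 6, 4 fell at 40 Gy against the lower doses, and 1 without 20Gy-3 and 30Gy-3, beside 9.71% of all genes in the fit to 11 libraries. Markers of these other cell types were thus measured in liver labelled as hepatocytes, and their part in the differences of the macrophage markers was not tested.

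Among 5825 genes with a symbol and a mean of at least 5 FPKM, the 5 most like MARCO over the 11 libraries were GSN, RHOC, PLS1, IDH2 and ANXA1, with Pearson's r of log2(FPKM + 1) from 0.955 to 0.895. These r describe 11 libraries that include 2 near-identical pairs and share the low value of control-2. The r of MARCO with the other markers ran from 0.031 for C1QA to 0.605 for CSF1R, and CSF1R came at place 279 in the order of likeness to MARCO. For C1QB the most like genes were SIGLEC1 (0.988), STIP1, MPZL1, DNAJA1 and ATP6V1A (0.946), and C1QC and C1QA had r of 0.986 and 0.974. SIGLEC1, the sialic acid receptor of tissue macrophages, thus followed C1QB through the 11 libraries more closely than any other of the 5825 genes, which leave out the markers. The r of MARCO with C1QB was 0.098.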

How the data were processed

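Total RNA of pig liver was extracted with Trizol, and libraries from a TruSeq RNA kit were sequenced from both ends on an Illumina HiSeq, per the labels' protocols. The authors deposited 1 table of FPKM for 12505 genes, and its 11 value columns were matched to samples by name. The submitters' processing notes list HISAT2, Cufflinks and HTSeq and the builds Sscrofa11.1 and mm10, and give no role for any; the annotation and the strand setting are not given in sources used here. Symbols were found for 10561 IDs, and positions come from the RefSeq gene table of Sscrofa11.1. Low values were searched for whole-read steps: at most 7.14% of low genes shared 1 ratio between 2 libraries, so depth is unknown and no counting interval is given.

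The 11644 genes that reached 1 FPKM in 2 or more libraries were fitted as log2(FPKM + 1), which understates changes of low genes, with 4 group means in limma 3.58.1 (R 4.3.3; eBayes with trend; residual df 7). All tests are two-sided, with Benjamini-Hochberg adjustment over all genes tested. The fit was tested on simulated data. The ratio to the Kupffer cell reference used 5 of 6 planned genes, since CD5L was not matched. Of each gene list, at most 4 called genes with at least 1 FPKM in the higher group were named, by size of change. For likeness, the 5 genes with the highest r were named for MARCO and C1QB. Alternatives were other scalings, pseudocounts, filters and variance models, a replicate block, libraries averaged or left out and, for the ratio, other references. The members and lists were chosen with earlier results of these data known.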

Additional observations from a re-analysis of the deposited data

Results flagged for a closer look

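The change of CD163 from control at 40 Gy exceeded that at 20 and 30 Gy by 1.83 on the log2 scale, and that of CD68 by 1.51. Both passed the threshold in the test of the difference itself (limma adjusted p = 0.0319 and 0.0226), which called 21.5% of all genes. Both calls were lost after rescaling and on leaving out 20Gy-3 and 30Gy-3. CD163 also stood out because all 3 libraries of 20 Gy were below the control mean and all 3 of 40 Gy above it. However, 20Gy-2 was only slightly below that mean (-0.054 on the log2 scale), and at 38.9 FPKM it was above control-2 (34.5). The share of all genes with this pattern was not computed. The mean changes at 20 and 40 Gy lay 2.20 apart on the log2 scale, and the difference between these 2 doses alone was not tested.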

How the results depend on the processing

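The FPKM table gives no depth, and 2 control libraries limit every comparison with control. Genes called numbered 548 in irradiated against control liver, 492 at 20 Gy, 353 at 30 Gy, 861 at 40 Gy and 2508 at 40 Gy against the lower doses. With libraries rescaled to 1 sum they numbered 216, 234, 156, 398 and 1548, and the share of calls that were higher went from 39.6%, 48%, 43.6% and 40.4% against control to 60.6%, 66.2%, 54.5% and 64.3%. With 30Gy-1 and 30Gy-2 averaged the counts against control were 337, 295, 130 and 548. Without 20Gy-3 and 30Gy-3 they were 290, 206, 126 and 551, and 1177 at 40 Gy against the lower doses. With both changes the 5 counts were 42, 59, 8, 123 and 202. With the compared groups alone in the fit 547 genes were called at 30 Gy and 48 at 40 Gy. With 1 library left out in turn the counts ran from 80 to 1416, 118 to 1644, 75 to 1110, 224 to 2655 and 846 to 4611.

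Of the 9 markers, 1 was called in irradiated liver, 0 at 20 Gy, 0 at 30 Gy, 1 at 40 Gy and 2 at 40 Gy against the lower doses. After rescaling, on dropping 20Gy-3 and 30Gy-3, or on dropping these and averaging the pair, 0 were called in each comparison, and with 30Gy-1 and 30Gy-2 averaged 0 were called in irradiated liver and 0 at 40 Gy. With the compared groups alone 0 were called at 40 Gy. With 1 library left out the numbers were 0 to 1 in each comparison with control and 0 to 4 between doses. MARCO relative to the resident markers ranged from 2.02 to 4.36 in irradiated liver and from -0.40 to 0.022 between doses with 1 library left out.

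Small differences changed sign. In irradiated liver VSIG4 (-0.04) was 0.10 after rescaling, 0.12 with the replicate block, 0.096 once 20Gy-3 and 30Gy-3 were left out and 0.097 with both changes, and -0.42 to 0.33 with 1 library left out. MSR1 (-0.16) was 0.18 with the replicate block and 0.081 without 20Gy-3 and 30Gy-3, alone or with the averaged pair. CD163 at 30 Gy (-0.60) was 0.065 in both of these cases, and -0.94 to 0.065 with 1 library left out. Between doses, when 20Gy-3 and 30Gy-3 were left out (in parentheses, also with the averaged pair), C1QA was -0.075 (-0.075), C1QB -0.090 (-0.090), C1QC -0.0073 (-0.0073) and CSF1R -0.056 (-0.056). With 1 library left out they ran from -0.18 to 0.43, -0.34 to 0.37, -0.18 to 0.49 and -0.26 to 0.48, and MARCO from -0.032 to 0.87.

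Replicate numbers were shared between groups, but not all same-numbered libraries deviated together, so the numbers were not taken as pairs: of 15 pairs 7 had a correlation over 0.1, with a range of -0.616 to 0.645. With the replicate number as a block 440, 399, 244, 805 and 2554 genes and 1, 0, 0, 1 and 3 markers were called. The cause of these changes was not tested.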
